A study of Mus musculus with 3 samples.

Results

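The Dlx and Msx genes encode homeodomain transcription factors, proteins that bind DNA through a conserved helical fold. They were followed here in mouse otic placodal ectoderm that lacked the growth factors Fgf3 and Fgf10. The members were chosen by name, as every non-control probe whose gene name on the array was Dlx1 to Dlx6 or Msx1 to Msx3. This gave 10 probes for 8 of the 9 genes, out of 41174 probes on each array, and no probe carried the name Dlx6. Of these 10 probes 9 entered the test, each bright enough in both genotypes on all 3 arrays to be marked above background, and the Dlx4 probe did not.

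Fgf3-/-;Fgf10-/- placodes (double null) were compared with Fgf3+/-;Fgf10+/- placodes (double heterozygote), both taken at the 4 to 8 somite stage from embryos that were not treated. Each genotype gave 3 pools of 10 microdissected placodes, and each of 3 arrays set 1 pool of each genotype side by side. No wild-type pool was hybridised, so the double heterozygote, which carries 1 null allele at each locus, was the only comparison. The double null RNA was labelled with Cy5 and the double heterozygote RNA with Cy3 on every array, so a dye effect of a probe and the genotype cannot be told apart. All ratios are given as double null over double heterozygote on the log2 scale.

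The family takes part in drawing the border between surface ectoderm and neural plate. Dlx genes lie in convergent pairs on the chromosomes (Dlx1 with Dlx2, Dlx3 with Dlx4, Dlx5 with Dlx6) and mark non-neural ectoderm, placodes and the neural crest of the pharyngeal arches. Msx genes respond to BMP signals and mark the edge of the neural plate, the dorsal neural tube and crest. MSX proteins mostly repress and DLX proteins mostly activate transcription from similar DNA sites.

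The probes are 60-base DNA oligonucleotides, and the sequences below are those on which the results turn. They are the probes of the brighter Dlx genes and of all 3 Msx genes, written 5′ to 3′. The capitals mark the longest run that a probe shared with a probe of another member, and only the first found where several were equally long. The longest was 8 bases over 43 probe pairs. The other probe of a marked run is not always among those shown.
Dlx2 A_51_P480202: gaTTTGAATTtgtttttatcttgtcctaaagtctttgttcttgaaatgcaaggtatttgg
Dlx5 A_51_P261051: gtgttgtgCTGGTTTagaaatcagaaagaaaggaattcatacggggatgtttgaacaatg
Msx1 A_52_P561671: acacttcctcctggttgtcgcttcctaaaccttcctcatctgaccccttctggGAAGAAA
Msx1 A_51_P218196: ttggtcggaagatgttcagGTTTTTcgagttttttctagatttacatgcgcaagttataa
Msx2 A_51_P388661: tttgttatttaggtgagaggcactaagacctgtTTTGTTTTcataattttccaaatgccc
Msx3 A_52_P665478: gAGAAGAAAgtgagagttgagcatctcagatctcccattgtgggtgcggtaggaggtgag
Msx3 A_51_P364302: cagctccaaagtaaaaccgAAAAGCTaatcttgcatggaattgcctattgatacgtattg
The array's design places them on the mm7 build, on the minus strand in each case. The Dlx2 probe lies at chr2:71387206-71387265 and the Dlx5 probe at chr6:6830949-6831008. The Msx1 probes lie end to end at chr5:36902462-36902521 and chr5:36902399-36902456, with 5 bases between them. The Msx2 probe lies at chr13:52503611-52503670. The Msx3 probes lie at chr7:136460734-136460793 and chr7:136460129-136460187. Whether a probe falls in coding sequence was not analysed here.

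No Dlx or Msx probe differed between the genotypes beyond the spread of the 3 arrays. With limma, 0 of the 9 tested probes passed an adjusted p of 0.05, against 1.51% of all 25504 probes tested (0.29% lower and 1.22% higher in the double null). Unadjusted, 0 of the 9 had p under 0.05, against 20.2% of all probes, and the lowest adjusted p was 0.317, for Dlx3. Their mean log2 ratios ran between -0.16 and 0.12 with a median of -0.06, beside a median of 0.01 over all probes tested. The mean was below 0 for 5 of the 9, against 46% of all probes. 1 of the 9 had the same sign on all 3 arrays, against 43.8% of all probes. The placodes are bulk samples, in which fewer cells of a type and less RNA per cell cannot be told apart.

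**Figure D1:**
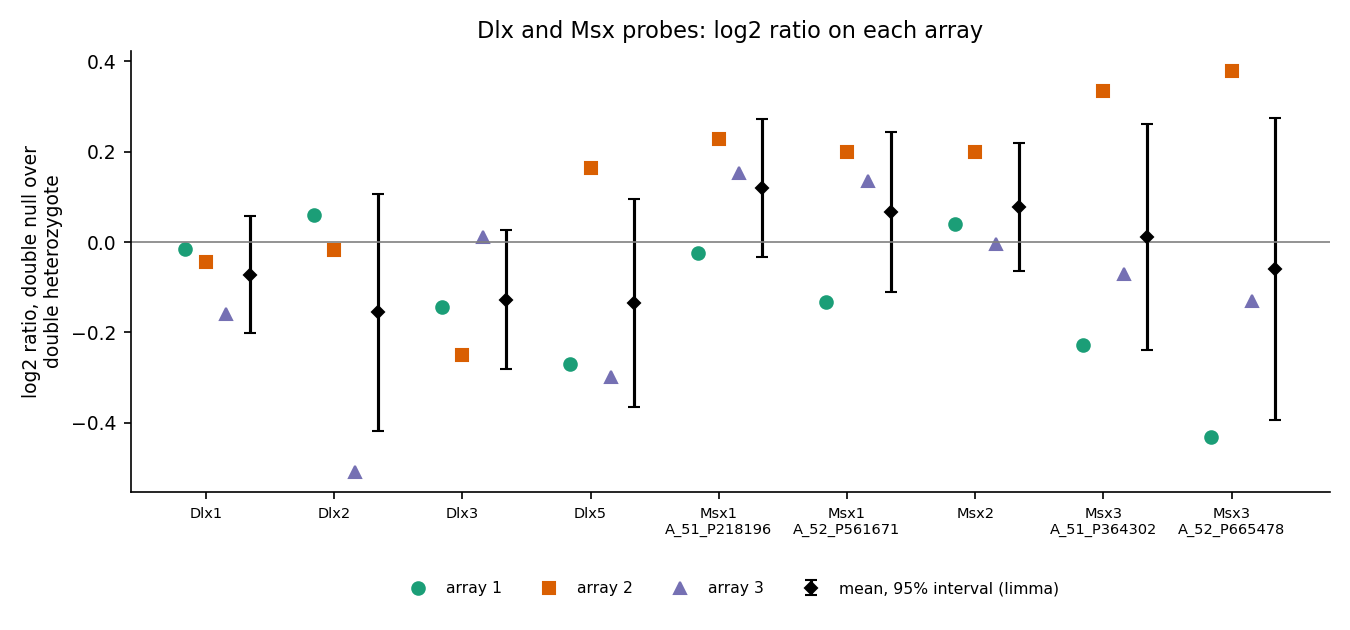
Log2 ratio (double null over double heterozygote, y axis) of each tested Dlx and Msx probe (x axis) on arrays 1, 2 and 3, with the limma mean and its 95% interval as a black diamond and bar. All 9 intervals include 0, and array 2 stands highest for Dlx5 and for every Msx probe.

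Dlx5 has a known part in the inner ear, since mice without it form defective semicircular canals. Its normalized intensity was 1427, 1763 and 1794 in the double null pools of arrays 1, 2 and 3, against 1720, 1573 and 2205 in the double heterozygote pools. The double null pool was lower on arrays 1 and 3 and higher on array 2, and the genotypes overlapped. The log2 ratios were -0.27, 0.16 and -0.30, with a mean of -0.13 ± 0.10 (SE, n = 3 arrays) and limma adjusted p = 0.47. The 95% interval of the fold ran from 0.777 to 1.07. Without array 2 the mean was -0.28 (adjusted p = 0.158), without array 1 it was -0.07 (adjusted p = 0.802) and without array 3 it was -0.05 (adjusted p = 0.839).

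Dlx6, the partner of Dlx5 in the same gene pair, had no value. The noncoding transcript beside it, Dlx6os2 in RefSeq and Dlx6as on the array, was measured by 1 probe at log2 ratios of -0.08, 0.04 and -0.07 (mean -0.04 ± 0.05, SE, n = 3, limma adjusted p = 0.731). Both probes of the noncoding transcript Dlx6os1, and the probe of Dlx4os beside Dlx4, were above background in neither channel on any array. These transcripts give no value for Dlx6 itself.

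Dlx1 and Dlx2 are known for the neurons of the ventral forebrain and for pharyngeal arch crest. Dlx2 had normalized intensities of 1060, 1144 and 1098 in the double null pools, against 1017, 1159 and 1562 in the double heterozygote pools. The double null pools lay close together, and the double heterozygote pool of array 3 stood above the other 5. The log2 ratios were 0.06, -0.02 and -0.51, with a mean of -0.16 ± 0.11 (SE, n = 3 arrays) and limma adjusted p = 0.465. This mean, the farthest from 0 of all the members, rested on array 3: without it the ratio was 0.02 with adjusted p = 0.892, and without array 1 it was -0.26 with adjusted p = 0.328. In the authors' deposited scanner values, array 3 alone gave a p under 0.01 for this spot (0.00884), against 0.91 on array 1 and 0.811 on array 2.

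Dlx1 was dim, with normalized intensities of 102.3, 119.3 and 101.9 in double null pools and 103.4, 122.9 and 113.7 in double heterozygote pools. Its log2 ratios were -0.01, -0.04 and -0.16, the only one of the 9 tested probes with one sign throughout, and its mean of -0.07 ± 0.05 (SE, n = 3 arrays) had limma adjusted p = 0.491. Without array 3 the mean was -0.03 (adjusted p = 0.841), and with the scanner's processed signals it was -0.20 (adjusted p = 0.343). The ratio of Dlx1 exceeded that of its neighbour Dlx2 by 0.35 on array 3, and the 2 genes lay within 0.08 of each other on arrays 1 and 2.

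Dlx3 and Dlx4 form the remaining pair, whose zebrafish counterparts take part in inducing the otic placode. The Dlx3 probe, at chr11:95233486-95233545 of mm7, had normalized intensities of 125.4, 133.7 and 158.3 in double null pools and 138.6, 159.1 and 157.0 in double heterozygote pools. The double null was lower on arrays 1 and 2 and level on array 3. The log2 ratios of -0.14, -0.25 and 0.01 gave a mean of -0.13 ± 0.06 (SE, n = 3 arrays) and limma adjusted p = 0.317. With the scanner's processed signals, which differ in both background treatment and normalization, the mean was -0.36 (adjusted p = 0.227), and with an offset of 16 in place of 50 it was -0.17 (adjusted p = 0.299). Without array 2 it was -0.07 (adjusted p = 0.73), and without array 3 it was -0.20 (adjusted p = 0.264).

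The Dlx4 probe was well above background in the double null channel on 1 of 3 arrays and in the double heterozygote channel on 0 of 3. Its spots read 85.1, 106.2 and 91.6 in double null pools over local backgrounds of 54, 68.5 and 51, and 62.1, 62.2 and 67.6 in double heterozygote pools over backgrounds of 44, 43.5 and 42.5. No ratio is given for it, and a difference was not detectable at this brightness.

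**Figure D2:**
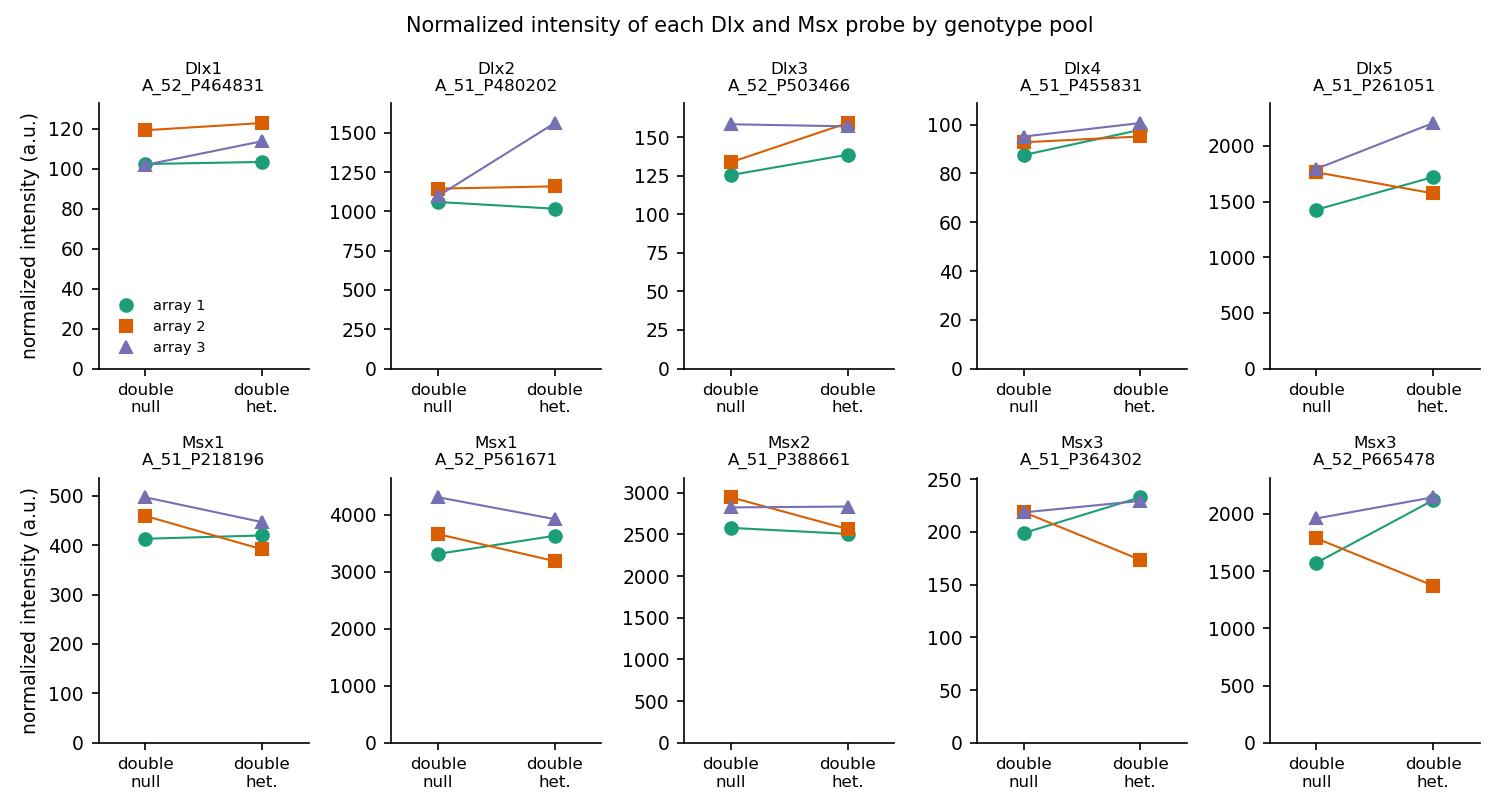
Normalized intensity (y axis, arbitrary units from 0) of each of the 10 Dlx and Msx probes in double null pools (left) and double heterozygote pools (right), with a line joining the 2 pools of an array. For Dlx5, Msx1 and Msx3 the line of array 2 falls to the right while that of array 1 climbs, and for Dlx2 the line of array 3 climbs most. For Dlx4, 5 of the 6 values were not well above background, and the highest double null value (95.15) all but met the lowest double heterozygote value (95.18).

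Msx1, needed for tooth and palate development in mice, was read by 2 probes. The brighter probe, A_52_P561671, had normalized intensities of 3315, 3661 and 4308 in double null pools and 3633, 3188 and 3925 in double heterozygote pools. Its log2 ratios were -0.13, 0.20 and 0.13, with a mean of 0.07 ± 0.07 (SE, n = 3 arrays) and limma adjusted p = 0.644. The second probe, A_51_P218196, gave -0.02, 0.23 and 0.15, a mean of 0.12 ± 0.06 and adjusted p = 0.338. The probes lay within 0.11 of each other on every array, and both were lowest on array 1 and highest on array 2. Without array 2 the mean of the brighter probe was 0.001 with adjusted p = 0.997, and that of the second was 0.07 with adjusted p = 0.738. Without array 1 the means were 0.17 (adjusted p = 0.315) and 0.19 (adjusted p = 0.263), and without array 3 the brighter probe gave 0.03 (adjusted p = 0.881).

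Msx2, a gene of skull and skin development that is induced by BMP signals, had the narrowest spread of the brighter members. Its normalized intensities were 2578, 2945 and 2824 in double null pools and 2506, 2565 and 2834 in double heterozygote pools. The log2 ratios of 0.04, 0.20 and -0.01 gave a mean of 0.08 ± 0.06 (SE, n = 3 arrays), limma adjusted p = 0.494 and a 95% interval of the fold from 0.957 to 1.16. Without array 2 the mean was 0.02 with adjusted p = 0.934. Without array 1 it was 0.10 (adjusted p = 0.584), and without array 3 it was 0.12 (adjusted p = 0.438).

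The Msx2 probe and the second Msx1 probe were printed at 10 spots on each array, which separates the error of a spot from the difference between arrays. The Msx2 spots had an SD of 0.02, 0.01 and 0.02 (log2 ratio) within arrays 1, 2 and 3, and the array means had an SD of 0.11. All 10 spots of array 2 lay between 0.18 and 0.22, above the highest spot of array 1 (0.07) and of array 3 (0.02). The Msx1 spots had an SD of 0.06 within each array, where 1 marked spot was left out on array 2 and 1 on array 3. On array 1 they reached 0.04 at most, below the lowest of array 2 (0.14) and of array 3 (0.09). The arrays thus differed by more than the error of the spots. Differences between pools and between hybridisations cannot be told apart here, since each pool was hybridised once.

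**Figure D3:**
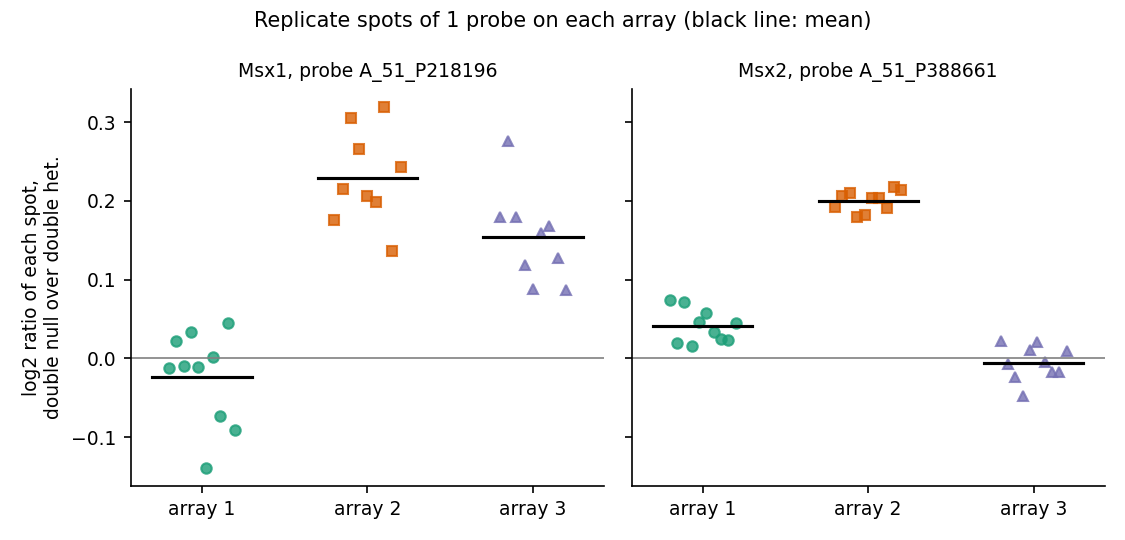
Log2 ratio (double null over double heterozygote, y axis) of each replicate spot of the Msx1 probe A_51_P218196 (left) and the Msx2 probe (right) on the 3 arrays (x axis), with the mean as a black line. Spots of the same array lie together, and the Msx2 spots of array 2, between 0.18 and 0.22, do not overlap those of the other arrays.

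Msx3, which in the mouse marks the dorsal neural tube, differed most from array to array. The brighter probe, A_52_P665478, had normalized intensities of 1572, 1786 and 1960 in double null pools and 2119, 1373 and 2144 in double heterozygote pools. The double heterozygote pool of array 2 was the lowest of the 6, and the double null was lower on arrays 1 and 3 and higher on array 2. The log2 ratios of -0.43, 0.38 and -0.13 gave a mean of -0.06 ± 0.14 (SE, n = 3 arrays) and limma adjusted p = 0.838, with a 95% interval of the fold from 0.761 to 1.21. The second probe, A_51_P364302, gave -0.23, 0.33 and -0.07, in the same order, with a mean of 0.01 ± 0.10 and adjusted p = 0.962. The means depended on single arrays: without array 2 they were -0.28 (adjusted p = 0.243) and -0.15 (adjusted p = 0.418), and without array 1 they were 0.12 (adjusted p = 0.639) and 0.13 (adjusted p = 0.566). Without array 3 they were -0.03 (adjusted p = 0.956) and 0.05 (adjusted p = 0.867).

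Dlx5 and both Msx3 probes, 3 of the 9 tested, were below 0 on array 1, above 0 on array 2 and below 0 on array 3, an order of signs held by 8.46% of all probes tested. In all, 6 of the 9 probes had their highest ratio on array 2, against 32.0% of all probes. These were the probes of Dlx5, Msx1, Msx2 and Msx3. Msx1 and Msx3 count with 2 probes each, which share the RNA of 1 gene and are not independent. Markers of other tissues were examined beside this. Of the dorsal neural tube and hindbrain list 14 of 14 genes were tested, with array medians of -0.15, -0.07 and -0.14, and 9 of the 14 were highest on array 2. The 2 genes of that list with the same order of signs were Wnt1 (-0.32, 0.15 and -0.29) and Zic1 (-0.27, 0.21 and -0.40), named here after their values were seen. Zic2 (0.25, -0.22 and 0.05) had the opposite signs, and several others, such as Egr2 and Wnt3a, were below 0 on every array. The summed intensity of the list lay between 56529 and 64497 in double null pools and between 60774 and 80358 in double heterozygote pools. Non-neural ectoderm genes, all 12 tested of the 12 on the array, were highest on array 2 in 10 cases, with array medians of -0.18, 0.02 and -0.13. Their summed intensity lay between 80157 and 104635 in double null pools and between 97246 and 113131 in double heterozygote pools. In the neural crest list 6 of 8 genes were highest on array 2 and 4 had the order of signs of Dlx5 and Msx3, with array medians of -0.09, 0.07 and -0.30. Its summed intensity was 35762, 38989 and 38977 in the double null pools, against 42274, 33081 and 48452 in the double heterozygote pools. Crabp1 (mean log2 intensity 14.9) was far brighter than the next gene of the list, Erbb3 (11.5), and weighed most in this sum. The double heterozygote pool of array 2 had the lowest sum of its genotype here. The same held for the dorsal neural tube and hindbrain, non-neural ectoderm, head mesenchyme, and blood and endothelial lists, but not for the other lists. In the preplacodal and otic list 8 of 11 genes were highest on array 2, and 5 of the 12 non-neural ectoderm genes had that order of signs. In the other lists the genes highest on array 2 were 2 of 8 head mesenchyme genes, 1 of 4 endoderm genes, 0 of 5 blood and endothelial genes, 5 of 15 BMP pathway genes, 2 of 6 BMP targets, 3 of 13 partners or targets and 5 of 12 neighbouring genes. The part of any of these tissues in the Dlx5 and Msx3 values was not tested.

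Blood and endothelial genes were uneven between the double null pools. The 5 tested members of their list had 0 calls and a median of 0.67, with array medians of 1.16, -0.02 and 0.18, and their summed intensity lay between 1437 and 8217 in double null pools and between 1635 and 2425 in double heterozygote pools. The embryonic globin gene Hbb-bh1 was at 1.20 (limma adjusted p = 0.257) and the VEGF receptor gene Kdr at 0.36 (adjusted p = 0.439). On arrays 1, 2 and 3 Hbb-bh1 was at 1.43, -0.51 and 2.69, and Kdr at 1.16, -0.26 and 0.18. The highest sum, 8217, was that of array 3, where Hbb-bh1 was high and Kdr was near 0. The sum therefore does not show blood and endothelial genes moving together. Of 4 tested endoderm genes 1 passed the threshold, against 1.91% of all genes, and the list median was -0.12. This was the transcription factor gene Sox17 at -0.54 (limma adjusted p = 0.0155), whose other probe gave -0.36. It did not pass with the scanner's processed signals or the series table, where 0 of all probes were called. The part of these cells in the Dlx and Msx values was not tested.

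The tissue label was examined with marker lists, in which a gene was represented by its brightest tested probe. Besides the lists above, 11 of 12 preplacodal and otic genes were above background and tested, and the exception was Pax2. So were 8 of 8 neural crest genes, 8 of 8 head mesenchyme genes, 4 of 5 endoderm genes and 5 of 9 blood and endothelial genes, with Ttr, Gata1, Hbb-y, Pecam1 and Tie1 not well above background. The pools thus held transcripts of genes listed for tissues around the placode, though a signal above background does not assign a transcript to a tissue. Dlx and Msx transcripts from crest or neural plate cells cannot be told apart from those of the ectoderm. The targeted genes had mean log2 ratios of -0.48 ± 0.12 for Fgf3 (limma adjusted p = 0.121) and 0.14 ± 0.09 for Fgf10 (adjusted p = 0.386; SE, n = 3 arrays). On arrays 1, 2 and 3 Fgf3 was at -0.69, -0.06 and -0.69, and Fgf10 at 0.31, -0.11 and 0.23. The deleted stretches were not located here, and these probes therefore check no genotype label.

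The same fit called 2 genes of the preplacodal and otic list. Of its 11 tested genes 11 had a mean below 0, with a median of -0.22, and 2 fell and 0 rose with limma, against 1.91% of all genes called (0.344% lower and 1.57% higher). These were Hmx2, a homeobox gene of the vestibular system, at -0.59 ± 0.08 (adjusted p = 0.0229), and Sox9, whose product regulates transcription in otic and crest cells, at -0.69 ± 0.11 (adjusted p = 0.0475; SE, n = 3 arrays). The other Sox9 probes gave -0.40 and -0.0040. Neither gene passed with the scanner's processed signals or with the series table, where limma called 0 of all probes (4418 and 4469 at an unadjusted p under 0.05). With only probes up to intensity 15 in the fit, limma called 21 probes, and 1 of them was lower. At most 1 of Hmx2, Sox9 and Sox17 can therefore have passed there. Whether the Dlx and Msx ratios differ from those of the otic list was not tested.

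BMP signalling lies upstream of Msx genes and of some Dlx genes in ectoderm. Of 15 tested BMP ligands, receptors, SMADs and antagonists 0 fell and 0 rose with limma, and the median log2 ratio was 0.04, against 0.0063 over all genes. The BMP mediator Smad4, shared with TGF-beta signalling, was at 0.04 and Smad5 at -0.0052. Of 6 tested BMP target genes 0 passed, with a median of 0.05, and Id2 and Id1, inhibitors of basic helix-loop-helix factors, were at 0.11 and -0.02. Among the genes known as partners or targets of DLX and MSX proteins, 0 of 13 passed, with a median of 0.07. The DLX and MSX binding protein gene Maged1 was at -0.03 and the homeobox gene Meis2 at 0.15. Their mean log2 intensities were 15.3 and 15.2, and the median log2 ratio of all probes above 15 was 0.19.

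Genes that lie near the Dlx and Msx loci gave 0 of 12 past the threshold and a median of 0.02. The brightest were Sem1, a proteasome subunit gene beside Dlx5 and Dlx6, at 0.23 (limma adjusted p = 0.104), and the histone acetyltransferase gene Hat1, near Dlx1 and Dlx2, at 0.04. Sem1 had a mean log2 intensity of 16.3, and the median log2 ratio of all probes above 15 was 0.19. In the neural crest list 0 of 8 passed (median -0.15), with Crabp1, a retinoic acid binding protein gene, at -0.10 and the neuregulin receptor gene Erbb3 at -0.22. In the head mesenchyme list 0 of 8 passed (median 0.05), with Prrx2 at -0.02 and Tbx1 at -0.18. In the dorsal neural tube and hindbrain list 0 of 14 passed (median -0.13), with the hindbrain gene Egr2 at -0.31. Of the non-neural ectoderm genes 0 of 12 passed (median -0.10), with the keratin genes Krt18 at -0.04 and Krt8 at -0.16.

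**Figure D4:**
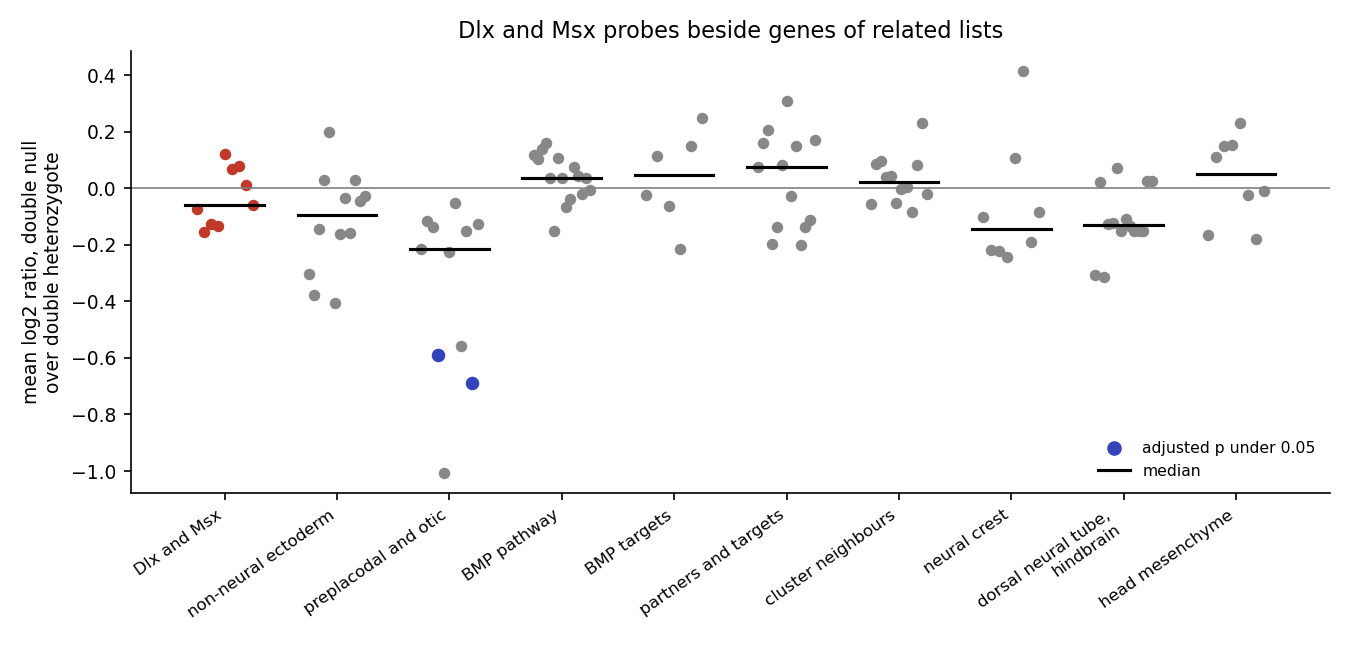
Mean log2 ratio (double null over double heterozygote, y axis) of the 9 tested Dlx and Msx probes (red) and of the tested genes of 9 lists (grey), with the median of each as a black line and genes past an adjusted p of 0.05 in blue. Of the 9 lists drawn, the preplacodal and otic list alone has blue points, Hmx2 and Sox9, and the Dlx and Msx probes lie between -0.16 and 0.12.

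After loess, a dependence of the ratio on brightness was left at the bright end, above the members. Their mean log2 intensity ran from 6.78 for Dlx1 to 11.8 for the brighter Msx1 probe. Between intensities of 10 and 12 the median log2 ratio of 5986 probes was 0.0065, and of 757 probes above 15 it was 0.19, where 225 of the 384 called probes lay. The standard errors of the members had a median of 0.07, against 0.06 over all probes tested. With median centring in place of loess the ratio ran with brightness among the members too, and the calls changed. Then 7 of the 9 probes passed, 2 lower and 5 higher, but so did 76.4% of all probes, whose array medians had moved to 0.36, 0.32 and 0.30. Recentred on the tested probes, a setting chosen after seeing the data, 4 of the 9 passed, against 54.6% of all probes. These were the dimmest members, Dlx1 (-0.66, limma adjusted p = 0.000562) and Dlx3 (-0.57, adjusted p = 0.00155), on the lower side, and the brightest, Msx1 A_52_P561671 (0.22, adjusted p = 0.0441) and Msx2 (0.21, adjusted p = 0.0274), on the higher.

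**Figure D5:**
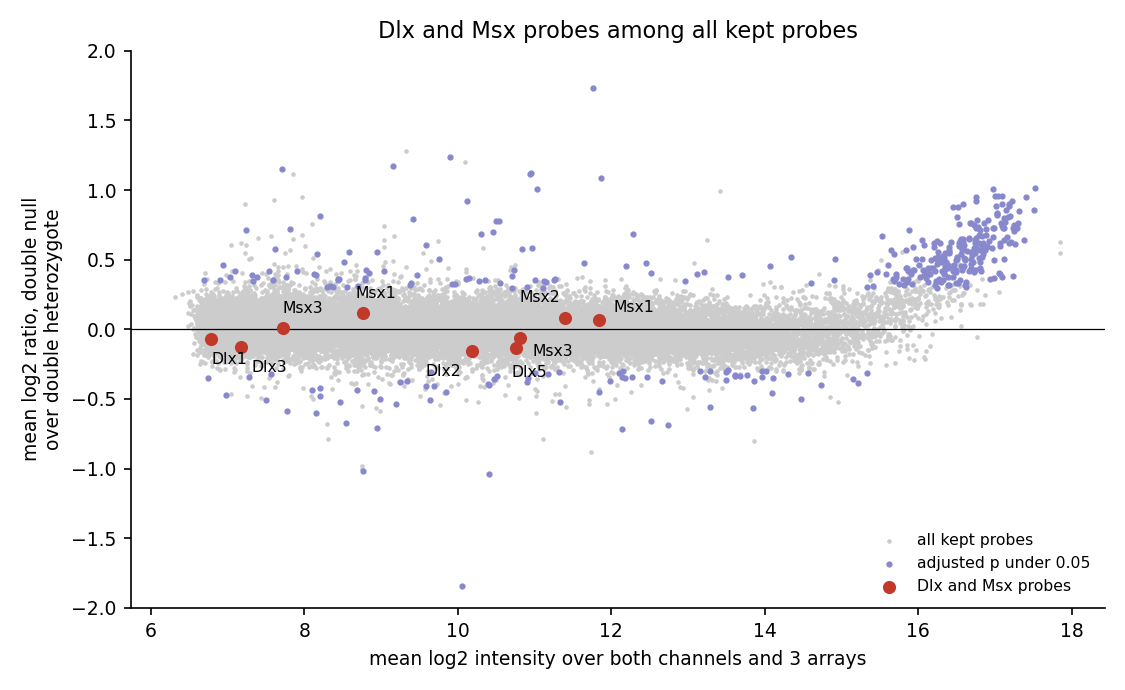
Mean log2 ratio (double null over double heterozygote, y axis) against mean log2 intensity over both channels (x axis) for all 25504 tested probes (grey), those past an adjusted p of 0.05 (blue) and the 9 Dlx and Msx probes (red). The Dlx and Msx probes lie within the grey band, to the left of the bright end where most of the blue points lie.

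Dlx2, the member with the mean farthest from 0, was set against other tested probes by the distance between their 3 array ratios. Probes with clone, predicted or accession-like names, and those without all 3 values, were left out. The nearest were those of the nuclear import gene Ipo7 (0.05, 0.0034 and -0.49, distance 0.03), the growth regulator Myc (0.10, -0.06 and -0.49, distance 0.06) and the phosphodiesterase gene Pde11a (0.0023, -0.07 and -0.50, distance 0.08). Within a distance of 0.2 lay 62 of the probes compared. This likeness rests on 3 arrays and is a description.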

How the data were processed

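Spot values came from Agilent Feature Extraction 9.5.1.1, per the submitters' processing notes. In each deposited scanner file are, for both channels, the mean intensity of a spot and the median intensity of its background before normalization, the software's processed intensity, its log10 ratio of Cy5 over Cy3 and a p-value per spot; the deposited marks of spots (well above background, outlier) are 0 or 1. The software's error of each ratio, a deposited score, was not used. The log2 ratios in the series table deposited by the authors equal the scanner's log10 ratio after conversion, to within 2.01e-06, and have column medians of -0.012, -0.0082 and -0.0031. All 3 arrays lie on 1 slide, so no batch was tested.

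The 2 intensities were corrected with normexp (offset 50), and loess (span 0.3, control spots at weight 0) was run on the log2 ratios of each array. Outlier spots (143 to 175 per array) were left out, spots of a probe were averaged, and 25504 of 41174 probes, well above background in 1 channel on all 3 arrays and measured on at least 2, were tested. Normalized intensities of a genotype are the loess values of its channel, not scaled between arrays. An intercept-only fit in limma 3.58.1 under R 4.3.3 (lmFit, eBayes) tested whether the mean ratio differs from 0, and p-values were adjusted by Benjamini and Hochberg's method over all probes (threshold 0.05). Intervals are moderated 95% intervals. The fit was tested on simulated data. The number of arrays limits the precision. Labels call the pools biological replicates.

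Members and lists were chosen with earlier results of these data known. The rule for names took all members, Fgf3 and Fgf10, up to 4 genes of a list past the threshold or else its 2 brightest, noncoding Dlx transcripts, and the 3 probes nearest to the member with the largest mean; 1 gene that met the rule is not reported here. Symbols were updated through RefSeq GRCm38.p6 gene records.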

Additional observations from a re-analysis of the deposited data

How the results depend on the processing

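All settings below were planned except the recentred median centring. The count of 0 called Dlx and Msx probes by limma held in all settings except median centring, with 7, and its recentred form, with 4; at an unadjusted p under 0.05 the other settings gave between 0 and 3 probes. Over all probes the 384 calls (74 lower, 310 higher) became 199 with an offset of 16 and 31 (5 lower, 26 higher) with loess span 0.1. Loess on spots above background gave 210. An intensity trend gave 993 (357 lower, 636 higher), and an adjusted p under 0.10 gave 1081 (377 lower, 704 higher). Up to intensity 15 there were 21 (1 lower, 20 higher). Leaving out 1 array gave between 87 (without replicate 3) and 305, and 230 without replicate 2. The scanner's processed signals gave 0 calls in limma, with 4418 probes at an unadjusted p under 0.05, and the series table gave 0, with 4469, beside 5162 in the fit reported. Median centring gave 19474 (2278 lower, 17196 higher), and recentred 13922 (7615 lower, 6307 higher).

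Signs turned for 4 probes. With median centring Dlx2 was at 0.22, Dlx5 at 0.28 and Msx3 A_52_P665478 at 0.36, and recentred Msx3 A_52_P665478 was at 0.036 and Msx3 A_51_P364302 at -0.26. Msx3 A_51_P364302 was also at -0.010 with loess span 0.1, -0.00039 with loess on spots above background and -0.024 as the mean of the gene's probes. With 1 array left out, Dlx2 lay between -0.26 and 0.021 (without replicate 3), Msx3 A_52_P665478 between -0.28 and 0.12 and Msx3 A_51_P364302 between -0.15 and 0.13. Dlx1 and Dlx3 stayed below 0 and Msx1 and Msx2 above 0 in every setting that gave them a value. The cause of these shifts was not tested.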
